A study of Drosophila melanogaster with 8 samples.

Results

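γH2Av peaks on U and Uextra, the unplaced sequences of the dm3 assembly, were taken from the 4 peak lists of a ChIP-seq experiment in Drosophila S2 cells. All peaks on either sequence were members, and peaks of different libraries that overlapped by at least 1 bp were merged into a region. This gave 465 regions, 74 on U and 391 on Uextra, of 4731 regions in the 4 lists, and they were built from 671 of 14456 peaks. S2 is a cultured Drosophila cell line. The experiment compared S2 cells labelled WT, which the paper describes as untreated, with S2 cells in which the linker histone dH1 had been depleted by RNAi. The latter received 100 μg of double-stranded RNA against dH1 on days 1, 4 and 7 of an 8-day culture. A control double-stranded RNA was not among the samples, so the effects of RNA treatment and of dH1 loss cannot be told apart. The 8 samples were 2 replicates per condition of γH2Av ChIP and of input, and gave 4 peak lists.

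γH2Av is the Drosophila histone variant H2Av phosphorylated near its C-terminus, a mark that spreads over chromatin around DNA breaks and is also placed at promoters of active genes. Histone H1 binds the linker DNA between nucleosomes and compacts chromatin, and in Drosophila it is needed to keep transposable elements and other repeats silent. U is a concatenation of scaffolds that could not be placed on a chromosome, and Uextra collects further small and lower-quality scaffolds. Both are rich in transposons, satellites and other heterochromatic repeats. A position along either sequence is therefore an address in the assembly and not a position on a chromosome. Reads that fit several sites had been counted by the authors at every one of them, so members with similar sequence share reads and are not independent. Genes and repeats in the regions were not analysed here, and neither were their sequences.

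The 4 lists held 3037 to 3925 peaks, and the number of reads behind them is unknown. WT replicate 1 stood apart from the other 3 libraries on these sequences. It had 391 peaks on U and Uextra together, 10.4% of its list (95% Wilson interval 9.46 to 11.4%), against 83 in WT replicate 2 (2.11%, 1.71 to 2.61%), 116 in dH1 RNAi replicate 1 (3.11%, 2.60 to 3.71%) and 81 in dH1 RNAi replicate 2 (2.67%, 2.15 to 3.30%). These intervals cover counting error only. Since WT replicate 1 stood apart, differences between conditions are given with and without it. With 2 libraries against 2, an exact permutation test cannot give a p-value below 0.333, and with differences taken within the 4 libraries it cannot go below 0.125, so no comparison could pass 0.05.

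On U, WT replicate 1 had 62 peaks, WT replicate 2 had 19, dH1 RNAi replicate 1 had 24 and dH1 RNAi replicate 2 had 16. WT replicate 1 was thus 2.58 times the next highest library, and the other 3 lay close together. WT averaged 40.5 ± 30.4 U peaks and dH1 RNAi 20 ± 5.66 (SD, n = 2). The difference of -20.5 peaks was smaller than the WT spread (exact permutation test, two-sided p = 0.667). Without WT replicate 1 the difference was 1 peak.

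On Uextra the same library was high, with 329 peaks against 64 in WT replicate 2, and 92 and 65 in dH1 RNAi replicates 1 and 2. It was 3.58 times the next highest library. WT averaged 196.5 ± 187 Uextra peaks and dH1 RNAi 78.5 ± 19.1 (SD, n = 2), a difference of -118 peaks (exact permutation p = 1) that became 14.5 peaks without WT replicate 1. As a share of the list, Uextra took 8.75% in WT replicate 1 (7.89 to 9.69%), 1.63% in WT replicate 2 (1.28 to 2.08%), 2.46% in dH1 RNAi replicate 1 (2.01 to 3.01%) and 2.14% in dH1 RNAi replicate 2 (1.68 to 2.72%). U took 1.65%, 0.484%, 0.643% and 0.527% of the same lists. Both shares were highest in one WT library and lowest in the other, with the dH1 RNAi libraries between them. Without WT replicate 1 the share was higher in dH1 RNAi by 0.101 percentage points on U and by 0.672 points on Uextra (exact permutation p = 0.667 and 0.333). The excess of WT replicate 1 was thus present on both sequences, and Uextra held between 77.1 and 84.1% of the members' peaks in every library.

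**Figure D1:**
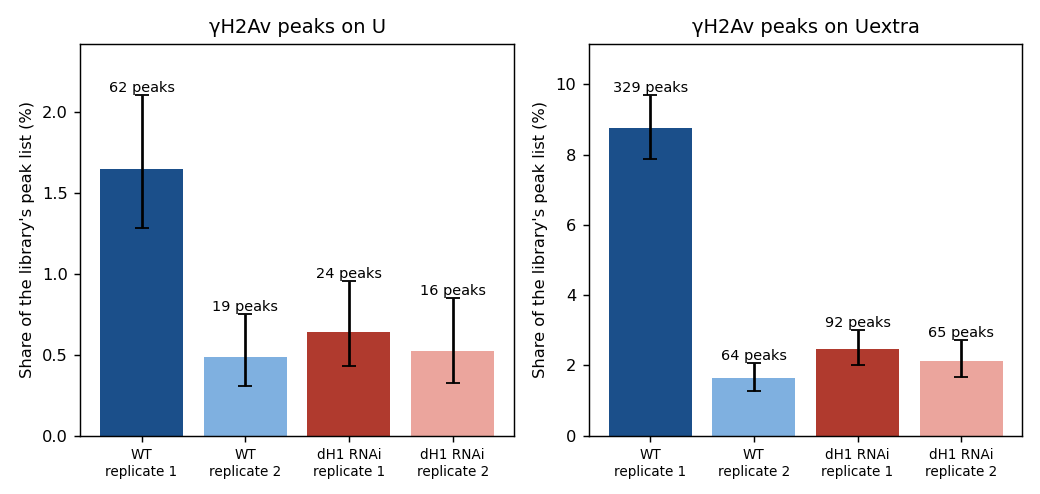
Share of each library's peak list that lay on U (left) and Uextra (right), in percent, with 95% Wilson intervals as error bars and the number of peaks above each bar. WT replicate 1 is highest on both, with 62 and 329 peaks, and the other 3 libraries lie between 16 and 24 peaks on U and between 64 and 92 on Uextra.

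The caller's score, which grows with the enrichment and the depth of a library, was used as a rank within each list, where percentile 0 is the weakest peak and 100 the strongest. The median peak of both sequences stood in the weaker part of every list. In WT replicates 1 and 2 the median U peak was at percentile 33.5 and 24.6, and in dH1 RNAi replicates 1 and 2 it was at 14.2 and 15.6. On Uextra the median was at 23.4 and 13.7 in WT and at 12.1 and 11.3 in dH1 RNAi. The large arms (2L, 2R, 3L, 3R and X) had medians of 51.1 to 53.8. U peaks ranked below those of the arms by 29.9 ± 7.95 percentile points and Uextra peaks by 36.8 ± 4.38 points (SD of the difference, n = 4 libraries), lower in 4 of 4 libraries for both (exact sign-flip test, two-sided p = 0.125, the smallest it allows, and 0.150 after Benjamini-Hochberg adjustment over 12 comparisons within libraries).

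Between the 2 sequences, U ranked higher than Uextra in 4 of 4 libraries, by 10.0, 10.9, 2.10 and 4.27 percentile points (mean 6.82 ± 4.31, exact sign-flip p = 0.125, adjusted 0.150). With means in place of medians the difference was 3.15 points (exact p = 0.25). With every list cut to its 3037 strongest peaks (equal list size) it was 4.59 points (exact p = 0.375).

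Between conditions, the median U peak of WT was at percentile 29.1 ± 6.23 and that of dH1 RNAi at 14.9 ± 0.963 (SD, n = 2). The WT and dH1 RNAi libraries did not overlap, and the difference of -14.1 points exceeded both SDs (exact permutation p = 0.333, the smallest possible, 0.889 after adjustment over 8 comparisons between conditions). It shrank to -9.73 points without WT replicate 1 and to -2.97 points at equal list size (exact p = 1). Without WT replicate 2 it was -18.5 points, and with peaks scoring under 100 dropped it was -4.70 points. For Uextra the medians averaged 18.6 ± 6.85 in WT and 11.7 ± 0.571 in dH1 RNAi, a difference of -6.86 points (exact permutation p = 0.333, adjusted 0.889). That difference was -2.01 points without WT replicate 1, -11.7 points without WT replicate 2 and -11.0 points at equal list size.

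**Figure D2:**
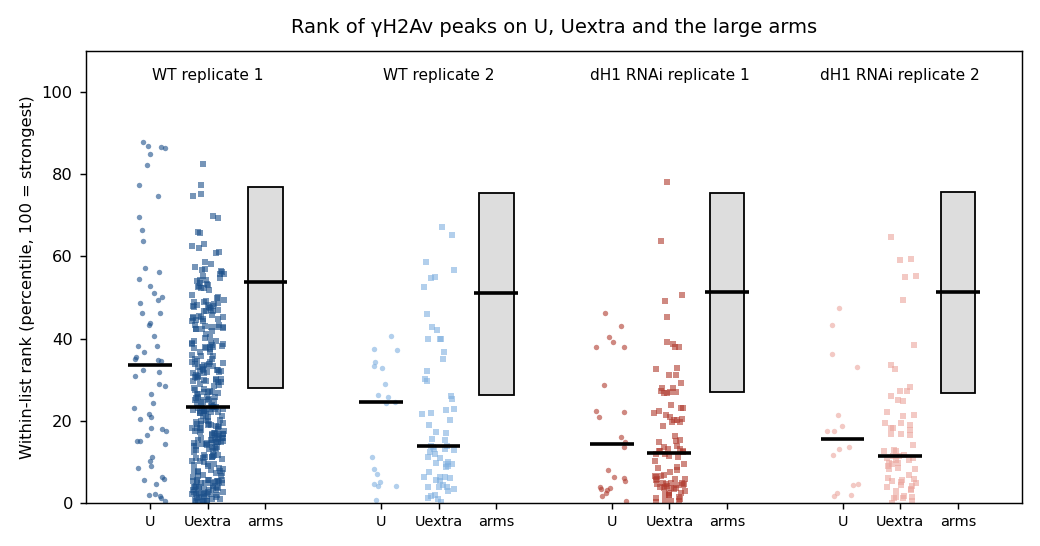
Within-list rank of each peak on U (circles) and Uextra (squares), as a percentile of the library's list, with black lines at the medians and, for the large arms, a box from the lower to the upper quartile. In each library the medians of U and Uextra lie below that of the arms, at 11.3 to 33.5 against 51.1 to 53.8.

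Only WT replicate 1 had U peaks stronger than the median peak of its own list, 17 of 62 (27.4%). The counts in the other 3 libraries were 0 of 19, 0 of 24 and 0 of 16, which allow shares of up to 15.8, 12.5 and 18.8%. Such limits treat peaks as independent, which members that share reads are not. On Uextra such peaks were 38 of 329 in WT replicate 1 (11.6%), 7 of 64 in WT replicate 2 (10.9%), 3 of 92 in dH1 RNAi replicate 1 (3.26%) and 5 of 65 in dH1 RNAi replicate 2 (7.69%). U peaks of that strength were thus seen in a single library, whereas each library had a few strong Uextra peaks.

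The excess of WT replicate 1 was present at several depths of the list. Among its 1000 top peaks, 8 lay on U and 4 on Uextra, against 1 on Uextra in dH1 RNAi replicate 1 and 0 on either in both replicates numbered 2 (a count of 0 of 1000 allows up to 0.3%). Among the 2000 top peaks, 72 of WT replicate 1 were members, or 3.6%, and 4 to 10 of the other libraries. At equal list size, 7.70% of the peaks of WT replicate 1 were members, against 1.05% in WT replicate 2, and 1.42% and 2.67% in dH1 RNAi replicates 1 and 2. Most members of the other 3 libraries entered at the weak end of the list.

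**Figure D3:**
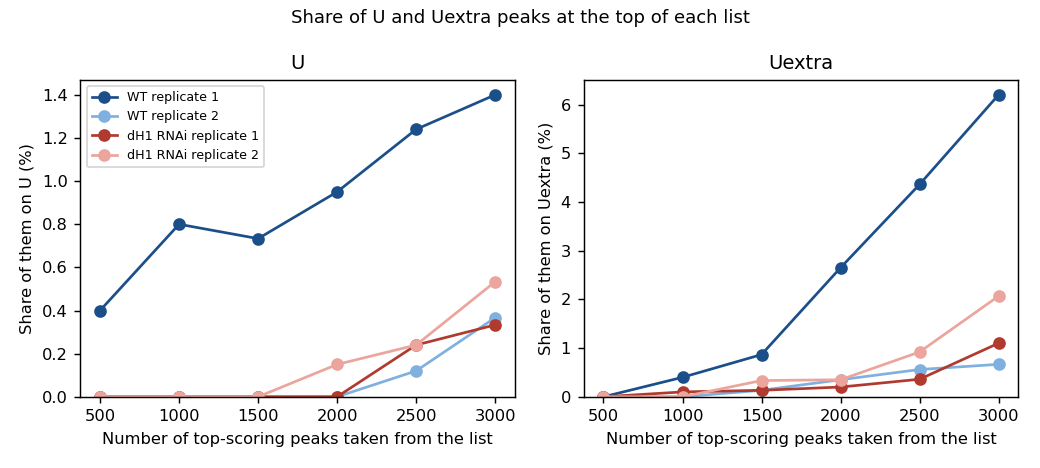
Share of the top-scoring peaks of each library that lay on U (left) and Uextra (right), in percent, for the 500 to 3000 highest scores. The line of WT replicate 1 lies above the other 3 libraries from 1000 peaks on, and reaches 1.4% on U and 6.2% on Uextra at 3000 peaks.

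Peaks on Uextra were narrow. Their median width was 1083 bp in WT replicate 1, 1106 bp in WT replicate 2, 1076 bp in dH1 RNAi replicate 1 and 1107 bp in dH1 RNAi replicate 2, and the widest of all was 2744 bp. U peaks had medians of 1380, 1457, 1500 and 1552 bp and reached 6837 bp. U peaks were wider than Uextra peaks in 4 of 4 libraries, by 380 ± 67.7 bp (SD, n = 4, exact sign-flip p = 0.125, adjusted 0.150). Both were narrower than peaks of the large arms, whose medians were 2439 to 2585 bp: U by 1038 ± 131 bp and Uextra by 1417 ± 64.3 bp, in 4 of 4 libraries (exact sign-flip p = 0.125, adjusted 0.150, for both).

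Between conditions, the median width of U peaks was 1419 ± 54.1 bp for WT libraries and 1526 ± 36.1 bp for dH1 RNAi libraries, a difference of 107 bp (SD, n = 2, exact permutation p = 0.333), and that of Uextra peaks was 1094 ± 15.9 against 1092 ± 21.9 bp, a difference of -2.75 bp (exact permutation p = 1). The U difference was -91.5 bp at equal list size and -92.2 bp once peaks scoring under 100 were dropped. Without WT replicate 1 the difference was 69 bp on U and -14 bp on Uextra, and without WT replicate 2, dH1 RNAi replicate 1 or dH1 RNAi replicate 2 the Uextra difference was 8.5, 12.8 and -18.2 bp.

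The strong U peaks of WT replicate 1 included a set of wide ones, picked out after their values were seen. Of all members, 7 regions were 5 kb or wider, and each of them was on U and was called in WT replicate 1. The widest, U 276020 to 282856, ranked 513 of 3761 in WT replicate 1 with a peak of 6837 bp. In dH1 RNAi replicate 1 a peak of 6810 bp covered almost the same stretch, but it ranked 3508 of 3733. U 1293061 to 1298345 had the same pattern, with a peak of 5285 bp at rank 495 in WT replicate 1 and one of 5273 bp at rank 3535 in dH1 RNAi replicate 1. These were the 2 wide regions that a second library called, and in both it placed the same extent near the bottom of its list.

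The other 5 were called in WT replicate 1 alone. They were U 1542813 to 1548529 (rank 503), U 239688 to 245937 (rank 568), U 1880728 to 1887202 (rank 663), U 977135 to 983006 (rank 854) and U 5767292 to 5772292 (rank 1931). Of the 7 wide regions, 6 lay in the first 2 Mb of U, where they made up 6 of its 8 regions. WT replicate 2 and dH1 RNAi replicate 2 had 0 wide peaks on U, while they had 468 and 319 wide peaks on the large arms. There WT replicate 1 had 456, fewer than WT replicate 2, and dH1 RNAi replicate 1 had 406. Wide peaks of WT replicate 1 were not confined to U. On the sequences other than the large arms, U and Uextra it had 27, against 13 in WT replicate 2, and 19 and 13 in dH1 RNAi replicates 1 and 2. The 21 peaks there that overlapped no other list had a median width of 5378 bp in WT replicate 1.

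**Figure D4:**
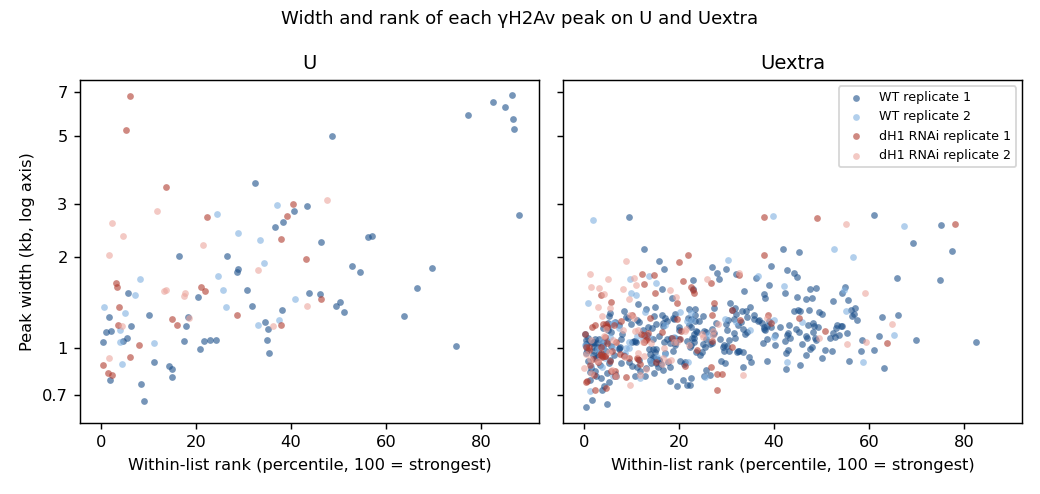
Width of each peak in kb (log axis) against its within-list rank as a percentile, for U (left) and Uextra (right), coloured by library. On U, peaks of 5 kb or more are from WT replicate 1, 6 of the 7 in the upper part of its list, and from dH1 RNAi replicate 1, both near the bottom; on Uextra no peak exceeds 2744 bp.

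Few members were called by every library. Of the 74 U regions, 7 were called in all 4 libraries (9.46%, 95% Wilson interval 4.66 to 18.3%), and of the 391 Uextra regions, 28 were (7.16%, 5.00 to 10.2%). Over all 4731 regions the share was 49.0%, and on the large arms it was 54.0%. Regions called in 1 library made up 64.9% of U (48 regions) and 77.7% of Uextra (304 regions), against 23.3% of all regions. WT replicate 1 alone called 41 regions on U and 259 on Uextra, which was 64.5% of the members against 11.0% of all regions. That share was 4.81% on the large arms and 16.0% on the sequences other than the arms, U and Uextra. With WT replicate 1 left out, 33 U and 132 Uextra regions remained. Of these, 30.3 and 24.2% were called in all 3 other libraries, where the large arms had 61.6%. The low sharing was therefore also present among the other 3 libraries, at a smaller size.

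By library, a peak of another list overlapped 33.9% of the U peaks of WT replicate 1 (21 of 62), 78.9% of those of WT replicate 2 (15 of 19), 81.2% of those of dH1 RNAi replicate 2 (13 of 16) and each of the 24 U peaks of dH1 RNAi replicate 1. For Uextra the shares were 21.3% in WT replicate 1 (70 of 329), 82.8% in WT replicate 2 (53 of 64), 76.1% in dH1 RNAi replicate 1 (70 of 92) and 81.5% in dH1 RNAi replicate 2 (53 of 65). The difference between U and Uextra was 8.09 ± 12.7 percentage points and went one way in 2 libraries and the other way in the other 2 (exact sign-flip p = 0.5). It was 4.97 points without WT replicate 1, and leaving out dH1 RNAi replicate 1 or 2 gave 3.14 or 13.4 points. On the large arms 90.0 to 98.9% of peaks were shared. Uextra peaks were shared less often than those of the arms in 4 of 4 libraries, by 29.5 ± 29.3 points (exact sign-flip p = 0.125, adjusted 0.150). The differences of Uextra minus the arms were -72.6 and -7.16 points in WT replicates 1 and 2. They were -21.0 and -17.3 points in dH1 RNAi replicates 1 and 2. Without WT replicate 1 the mean deficit was 26.3 points. U peaks were shared less often than those of the arms in 3 libraries and more often in dH1 RNAi replicate 1, with a mean deficit of 21.4 ± 27.1 points (exact sign-flip p = 0.25, adjusted 0.273). Without dH1 RNAi replicate 1 the difference of U minus the arms was -34.0 points. A library left out also no longer counted as an overlapping list for the others. Values without a library are therefore not averages of the other libraries' own differences.

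The pairs of libraries did not sort by condition. On Uextra, averaged over both directions, the highest overlap was 59.6%, between WT replicate 2 and dH1 RNAi replicate 1, and the dH1 RNAi replicates overlapped by 56.4%. The WT replicates overlapped by 39.2%, which was made up of 12.8% of the peaks of WT replicate 1 and 65.6% of those of WT replicate 2. On U the highest overlap was again between WT replicate 2 and dH1 RNAi replicate 1, at 66.0%. There the dH1 RNAi replicates overlapped by 62.5% and the WT replicates by 34.4%.

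**Figure D5:**
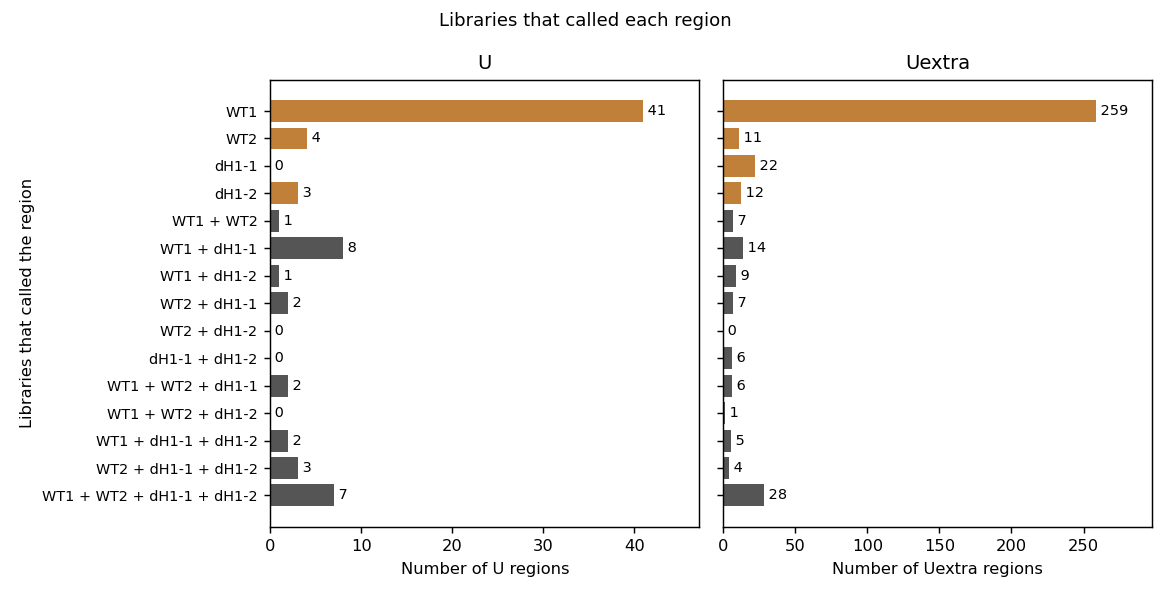
Number of U regions (left) and Uextra regions (right) called by each combination of libraries, where WT1 and WT2 are the WT replicates and dH1-1 and dH1-2 the dH1 RNAi replicates; orange bars are regions of a single library. WT replicate 1 alone accounts for 41 of 74 U regions and 259 of 391 Uextra regions, and 7 and 28 regions were called in all 4 libraries.

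Regions seen in 1 library were not equally weak in each. In WT replicate 1 the peaks it alone called had a median percentile of 28.6 on U and 23.2 on Uextra, close to those it alone called on the large arms, at 24.2. Where the other libraries had such peaks, they stood lower. The same held on the large arms, with medians of 11.9 in WT replicate 2, and 12.0 and 14.4 in dH1 RNAi replicates 1 and 2. On Uextra the medians of such peaks were 3.95 in WT replicate 2 (11 peaks), 5.18 in dH1 RNAi replicate 1 (22 peaks) and 9.55 in dH1 RNAi replicate 2 (12 peaks). On U they were 4.28 in WT replicate 2 (4 peaks) and 17.6 in dH1 RNAi replicate 2 (3 peaks), and dH1 RNAi replicate 1 had 0. Uextra regions of all 4 libraries had higher medians, at 34.8, 31.2, 27.2 and 20.8 in WT replicates 1 and 2 and dH1 RNAi replicates 1 and 2. This was not particular to Uextra. Peaks of such regions on the large arms had medians of 64.0, 66.5, 64.1 and 56.1 in the same order. On U the medians were 40.6, 26.3, 39.1 and 18.6, the last close to the 17.6 of the peaks that dH1 RNAi replicate 2 alone called.

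The reproducible members were named by a rule, the up to 5 regions of each sequence called in all 4 libraries whose worst rank among the libraries was best. On Uextra the first was 372283 to 374850, which ranked 937 and 1287 in WT replicates 1 and 2 and 820 and 1366 in dH1 RNAi replicates 1 and 2. It was the highest-scoring Uextra peak of both WT replicate 2 and dH1 RNAi replicate 1, and its peak was 2540 to 2567 bp wide in the 4 libraries. The ranks of this region in the 2 conditions overlapped.

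The next was Uextra 1465489 to 1468179, at ranks 1700, 2273, 1902 and 1242 in the same order of libraries. Uextra 18973117 to 18974330 ranked 2310, 2249, 2267 and 2211, which in lists of different length was percentile 38.6, 42.7, 39.3 and 27.2. Uextra 169960 to 172086, the first region along the sequence, ranked 2187, 1702, 2318 and 2048. Uextra 9958751 to 9959976 was the one of these 5 in which both dH1 RNAi libraries ranked it higher than both WT libraries, at 1352 and 1357 against 2347 and 2122 (percentile 63.8 and 55.3 against 37.6 and 45.9). At Uextra 169960 both dH1 RNAi libraries had the lower percentile, 37.9 and 32.6 against 41.9 and 56.6 in WT, and in the other 3 the percentiles of the WT and dH1 RNAi libraries overlapped.

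The strongest Uextra peak of WT replicate 1 was at 5223732 to 5224812, where it ranked 658. The same region ranked 1621 in WT replicate 2, and 2571 and 1237 in dH1 RNAi replicates 1 and 2, so that the replicates of each condition were far apart. The strongest of dH1 RNAi replicate 2 was 5294332 to 5295705, at rank 1072, against 2728 and 1762 in WT and 2043 in dH1 RNAi replicate 1. The widest Uextra region was 346161 to 348910, with peaks of 2744, 2724 and 2718 bp in WT replicates 1 and 2 and dH1 RNAi replicate 1 and of 1619 bp in dH1 RNAi replicate 2.

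On U the first of the shared regions was 6330330 to 6331834, at ranks 1903 and 2326 in WT and 2005 and 1719 in dH1 RNAi. It carried the highest-scoring U peak of WT replicate 2 and of dH1 RNAi replicate 1. U 5620357 to 5623441 ranked 2128 and 2468 in WT and 2227 and 1594 in dH1 RNAi, and was the strongest U peak of dH1 RNAi replicate 2. The others were U 8948985 to 8950959 (worst rank 2582), U 5629527 to 5630898 (2894) and U 8240805 to 8242365 (2916). The strongest U peak of WT replicate 1 was elsewhere, at 6808761 to 6811529. It ranked 458 there, 2901 of 3733 in dH1 RNAi replicate 1 and 2963 of 3037 in dH1 RNAi replicate 2, and was not called in WT replicate 2.

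Where a region was called in all 4 libraries, its extent was similar in each on U, and on Uextra for most regions. The widest of the 4 peaks of a region was 1.06 times the narrowest on U in the median (7 regions, at most 1.22 times) and 1.16 times on Uextra (28 regions, at most 1.83 times). On the large arms it was also 1.16 times, over the 1910 regions with a single peak in each library.

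Few members were specific to a condition, that is, called by both its replicates and by neither replicate of the other. dH1-only regions numbered 0 of 74 on U, which allows a share of up to 4.05%, and 6 of 391 on Uextra (1.53%, 0.705 to 3.31%), against 1.06% of all regions. The share on Uextra was near that background. However, regions of 1 library cannot be dH1-only, and they made up 77.7% of Uextra against 23.3% of all regions. Among regions called in at least 2 libraries, 6 of 87 were dH1-only on Uextra (6.90%) and 42 of 3425 on the large arms (1.23%). This second comparison was chosen after the values were seen and has no test. The 6 regions were Uextra 20803026 to 20803935, 2163131 to 2164204, 2594567 to 2595636, 1240636 to 1241867, 26243138 to 26244083 and 18930614 to 18931585. Their percentiles were 21.5 or lower in both lists, with ranks of 2936 to 3591 of 3733 in dH1 RNAi replicate 1 and 2385 to 2944 of 3037 in dH1 RNAi replicate 2, and the regions were 910 to 1232 bp wide. At equal list size 3 dH1-only regions were found on Uextra, and 0 with a score of at least 100. Of the 6, Uextra 20803026 and 2163131 kept both calls at equal list size (ranks 2936 and 2978 in dH1 RNAi replicate 1). The others ranked 3240 to 3591 in that list, beyond the 3037 kept, so the 3 included a region outside the 6. Without WT replicate 1, WT replicate 2, dH1 RNAi replicate 1 or dH1 RNAi replicate 2, when fewer calls are needed, there were 11, 10, 18 and 28 on Uextra, and 2, 3, 3 and 0 on U. The share over all regions was not computed under these alternative settings, so these counts cannot be set against a background.

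WT-only regions numbered 1 on U (1.35%, 0.239 to 7.27%) and 7 on Uextra (1.79%, 0.870 to 3.65%), against 3.64% of all regions. Among regions called in at least 2 libraries, the WT-only share was 3.85% on U, 8.05% on Uextra and 4.47% on the large arms. The one on U was 9426214 to 9427583, at ranks 3697 of 3761 and 3896 of 3925 in WT replicates 1 and 2. The 7 on Uextra were 7145551 to 7146518, 1676720 to 1677709, 19451746 to 19453087, 12102193 to 12103282, 22290576 to 22291832, 8123223 to 8124299 and 1988913 to 1991634. Their ranks were 2414 to 3693 in WT replicate 1 and 3252 to 3851 in WT replicate 2. On Uextra 0 WT-only regions were found at equal list size or with a score of at least 100. On U 1 was found under either setting, and it was not the region above, which scored 52.5 and 52.0 and ranked beyond 3037. The region that met both settings was U 1177392 to 1179932, at ranks 2383 and 2792 in WT replicates 1 and 2. Its call in dH1 RNAi replicate 1, at rank 3178 with a score of 86.7, was dropped by both. Without WT replicate 1, WT replicate 2 or dH1 RNAi replicate 1 there were 5, 42 and 3 WT-only regions on U, and 18, 266 and 13 on Uextra. For these counts too, no share over all regions was computed.

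Along the sequences, members lay from 239688 to 9954984 on U and from 169960 to 27688359 on Uextra. On U the second part held more regions, with 59 of 74 from 5 Mb on and 0 between 4 and 5 Mb. The Mb with most regions was that from 9 to 10 Mb, with 18, of which WT replicate 1 called 16, WT replicate 2 and dH1 RNAi replicate 1 called 3 each and dH1 RNAi replicate 2 called 2. On Uextra each Mb up to 28 Mb held 4 to 25 regions.

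The Uextra peaks of WT replicate 1 were spread differently from those of the others. In the first 10 Mb of Uextra lay 36.5% of the Uextra peaks of WT replicate 1 (120 of 329, 95% Wilson interval 31.5 to 41.8%), 67.2% of those of WT replicate 2 (43 of 64, 55.0 to 77.4%), 55.4% of those of dH1 RNAi replicate 1 (51 of 92, 45.3 to 65.2%) and 55.4% of those of dH1 RNAi replicate 2 (36 of 65, 43.3 to 66.8%). The intervals treat peaks as independent, which members that share reads are not. The boundary was also set after the positions were seen, so the shares are a description and the intervals do not compare libraries. In the first 3 Mb the shares were 12.2%, 35.9%, 25.0% and 29.2%. Between 13 and 14 Mb WT replicate 1 called 23 peaks, and the others called 1, 4 and 2. Between 14 and 15 Mb it called 12 and the others 0.

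With regions up to 10 kb apart joined, 22 of 74 U regions (29.7%) and 110 of 391 Uextra regions (28.1%) had a neighbour, in 10 and 52 clusters, and the largest cluster held 3 regions on U and 4 on Uextra. The cluster at U 5620357 to 5635311 held 3 regions, and 2 of them were called in all 4 libraries. U 6330330 to 6337507 also held 3, of which 1 was called in all 4. The largest on Uextra, 13419504 to 13431398, held 4 regions, each called in WT replicate 1 alone. Scaffold ends were not known here, so regions counted as neighbours or as a cluster can lie on different scaffolds.

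Within single lists, 24.2% of the U peaks of WT replicate 1 had a neighbour within 10 kb (15 of 62), as did 26.3% in WT replicate 2 (5 of 19), 12.5% in dH1 RNAi replicate 1 (3 of 24) and 12.5% in dH1 RNAi replicate 2 (2 of 16). On Uextra the shares were 23.7% (78 of 329), 0 of 64, which allows up to 4.69%, 6.52% (6 of 92) and 12.3% (8 of 65). The share was higher on U in 4 of 4 libraries, by 8.24 ± 12.3 percentage points (exact sign-flip p = 0.125, adjusted 0.150), although in WT replicate 1 and dH1 RNAi replicate 2 the difference was 0.485 and 0.192 points. Without WT replicate 2 the mean difference was 2.22 points. It was 4.37 points with a neighbour within 5 kb (exact p = 0.625). The large arms had shares of 77.5 to 84.4%, higher than U and Uextra in 4 of 4 libraries. This share rises with the number of peaks per Mb, and it was not corrected for that number. On U and Uextra a gap can also span the join of unrelated scaffolds, which limits the comparison with the arms and between the 2 sequences.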

How the data were processed

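The 4 ChIP lists and 4 inputs were grouped by the sample labels. According to the paper and the submitters' processing notes, reads had been aligned to dm3 with Bowtie 0.12.5, up to 2 seed mismatches and all sites of a read kept (limit 10000). Duplicates had been removed with sambamba, and peaks called with MACS 1.4 at p below 1e-05, each ChIP library against its own input, without pooling. The deposited values are peak positions and the caller's score, −10 times the log10 of its p-value, with 50.01 the lowest. A further 4 deposited files duplicated these lists and were left out. Starts are printed counted from 1.

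Ranks, widths, overlaps (at least 1 bp) and gaps were computed with Python 3.11.15, numpy 2.4.6, pandas 2.3.3 and scipy 1.17.1, and checked on simulated lists. Libraries were compared by exact two-sided tests, with permutation of 6 labelings between conditions (8 comparisons) and sign flips within libraries (12 comparisons), both adjusted by the Benjamini-Hochberg method. Alternatives were a minimum score of 100, equal list size, each library left out, the replicate block, means for medians, overlap of 50%, gaps of 5 and 20 kb, and merging up to 1000 bp apart. Regions were named by rule: on each sequence the 5 regions called in all 4 libraries whose worst rank was best, up to 8 dH1-only and WT-only regions, each library's highest score, the widest region, and up to 3 clusters with most regions. The members and lists were chosen with earlier results of these data known. Peak lists do not give the depth of a library, so precision follows from the number of peaks, by 95% Wilson intervals and, for 0, by the limit of 3 counts. Both treat peaks or regions as independent, which members that share reads are not. The replicates were independent biological ones, according to the paper. No gene or sequence was read, as no dm3 genome or annotation was used here.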

Additional observations from a re-analysis of the deposited data

How the results depend on the processing

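Of 197 alternative values for 26 results, 168 kept their direction or, for counts, stayed within 1.5 times. With a minimum score of 100, all-4 regions numbered 3 on U and 9 on Uextra, and dH1-only and WT-only regions on Uextra 0 each. At equal list size there were 12 all-4, 3 dH1-only and 0 WT-only regions on Uextra. The width difference between conditions on U was -91.5 bp at equal list size and -92.2 bp with weak peaks (score under 100) dropped, which also gave 23.5 bp on Uextra. The cause was not tested, although stricter lists hold fewer members by construction.

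Without one library, the difference of dH1 RNAi minus WT was -42 to 1 U peaks, -250.5 to 14.5 Uextra peaks, -1.06 to 0.101 points of the list on U and -6.45 to 0.672 on Uextra, the positive values being those without WT replicate 1, and -18.2 to 12.8 bp of Uextra width. Counts then need fewer calls: on U 0 to 3 regions were dH1-only and 1 to 42 WT-only, and on Uextra 10 to 28 and 8 to 266, the most WT-only regions being those without WT replicate 2. All-library regions numbered 7 to 10 and 29 to 34. For dH1-only and WT-only regions, the share over all regions was not computed under any alternative setting, so their counts there have no background.

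With replicate number as a block the mean differences stay as they are (-20.5 U peaks and -118 Uextra peaks). The paired differences were -38 and -3 U peaks, and -237 and 1 Uextra peaks. The smallest p is 0.5, so the replicate block made 0 calls in 8 comparisons. Deviations of same-numbered libraries from their condition were correlated at -0.142 across all regions. Crossed pairs, tried after seeing the data, also made 0 calls. Unknown depth limits every comparison of calls between libraries.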

Other observations

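The share of condition-specific members depended on the regions taken as a whole. This comparison was chosen after the values were seen and has no test. Among regions called in at least 2 libraries, which leaves out the 300 that WT replicate 1 alone called, 6 of 113 members were dH1-only (5.31%) and 8 were WT-only (7.08%). On the large arms 42 of 3425 such regions were dH1-only (1.23%) and 153 were WT-only (4.47%). All-4 regions made up 31.0% of the members and 65.1% of the arms' regions by this count. Each of the 6 dH1-only members was on Uextra, where a minimum score of 100 left 0 dH1-only and 0 WT-only regions.

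Among the 35 members called in all 4 libraries, ranks in the WT replicates were less alike than in any other pair of libraries, with a Spearman rho of 0.137 and a Pearson r of 0.233 across regions. For the dH1 RNAi replicates they were 0.585 and 0.610. The most alike pair was WT replicate 2 and dH1 RNAi replicate 1, at 0.688 and 0.713. Over 2231 regions of the large arms the WT replicates were also the least alike pair, at 0.558 and 0.527, and the dH1 RNAi replicates the most alike, at 0.832 and 0.819. These are descriptions across regions, which share libraries and reads from repeats and are not replicates.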
